A study of Mus musculus with 10 samples.

Results

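The chromatin around 10 genes that are textbook targets of serum response factor (SRF) was described from ATAC-seq peak lists of neural stem cell cultures. The genes were Srf itself, Acta2, Actb, Actg2, Tagln, Cnn1, Vcl, Myl9, Tpm1 and Egr1. A peak belonged to a gene when its summit lay in the gene body or within 20 kb of it. Overlapping peaks of the 10 libraries were merged into regions, and 70 of 137454 regions belonged to the 10 genes. Vcl, the longest gene, had 18 regions, Acta2 and Actb had 8 each, Tpm1 had 7, Actg2 and Egr1 had 6 each, Tagln and Cnn1 had 5 each, Srf had 4 and Myl9 had 3. The rule that assigned regions used the names and positions of the genes and no measured value. The genes themselves were chosen with earlier results of these data known.

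SRF is a transcription factor that binds a short DNA element called the CArG box, a pair of C, 6 bases that are each A or T, and a pair of G. It works with either of 2 kinds of partner. The ternary complex factors (Elk1, Elk3, Elk4) are switched on by the mitogen-activated kinase ERK and drive immediate early genes such as Egr1 and Fos. The myocardin-related factors (Mrtfa, Mrtfb) are held in the cytoplasm by monomeric actin and enter the nucleus when actin polymerises, and they drive genes of the actin cytoskeleton and of smooth muscle, Srf and Vcl among them. Serum is the classic stimulus of both routes. In the nervous system SRF is best known for its part in neurite growth and in genes induced by activity.

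ATAC-seq marks accessible DNA with a transposase. The cells were adult neural stem cells from the subependymal zone (SEZ) of mice 10 weeks old, and each library came from 50000 cells. In PRO cultures, WT cells or cells lacking Cdkn1b (p27KO) grew as neurospheres, fed with EGF at 20 ng/ml and FGF at 10 ng/ml. Cells of the DIFF cultures, of either genotype, were seeded on Matrigel with FGF for 2 days, after which mitogens were taken away and the medium received 2% fetal bovine serum for 24 h. WT cells gave 3 libraries per condition and p27KO cells 2. The p27KO cells came from mice that carried the deletion from the germ line. The PRO neurospheres were taken at 3 days in vitro, as both the labels and the methods give it, though 1 sentence of its results names a longer time. DIFF minus PRO thus compares serum, substrate, attachment and mitogens at once, and the part of each cannot be told apart. Libraries of a group are labelled as biological replicates, with nothing that ties them to separate animals, so p-values measure the spread between these libraries, which may be technical.

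The lists held between 57534 and 91801 peaks, and the number of reads behind them is unknown. WT DIFF replicate 3 stood apart, with 88738 peaks against 61783 and 57534 in the other WT DIFF libraries. Between 36 and 52 member regions had a peak in a library, or 5.11 to 6.40 per 10000 peaks of its list. As a check of the labels, the Cdkn1b promoter was a peak in all 6 WT libraries and in 0 of the 4 p27KO ones, as was that of Ddx3y on the Y chromosome, so the genotypes also differed in a Y-linked peak, and this cannot be told apart from the deletion. Free-text descriptions of the p27KO libraries name WT cells, against their titles and genotype, and the Cdkn1b peaks followed the titles. The 6 neural progenitor markers examined (Nes, Slc1a3, Fabp7, Egfr, Vim, Prom1) had a promoter peak in each of the 10 libraries.

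The sequences below show some of the CArG boxes that lie in accessible DNA of these genes. RefSeq promoters (GRCm38.p6, the 250 bases before a start) were found for Srf, Vcl, Myl9, Acta2, Cnn1 and Tpm1; Actb, Actg2, Tagln and Egr1 had no entry. An exact CArG box was present before the start of Srf, where there were 2, and of Vcl and Myl9, with 1 each. In the table as a whole, 1.47% of 32851 promoters held one. The stretches before the first annotated exon were printed 5′ to 3′ on the gene's strand, with CArG boxes in capitals. They lie at chr17:46556176-46556412 (minus strand), chr14:20929148-20929397 (plus strand) and chr2:156775214-156775419 (plus strand). The boxes begin 82 and 62 bases before the start in Srf, 227 in Vcl and 161 in Myl9.
Srf promoter: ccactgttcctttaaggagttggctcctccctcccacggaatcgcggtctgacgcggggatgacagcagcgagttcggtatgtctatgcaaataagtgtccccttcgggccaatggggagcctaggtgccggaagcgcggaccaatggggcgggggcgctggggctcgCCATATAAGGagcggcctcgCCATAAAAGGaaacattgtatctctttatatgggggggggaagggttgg
Vcl promoter: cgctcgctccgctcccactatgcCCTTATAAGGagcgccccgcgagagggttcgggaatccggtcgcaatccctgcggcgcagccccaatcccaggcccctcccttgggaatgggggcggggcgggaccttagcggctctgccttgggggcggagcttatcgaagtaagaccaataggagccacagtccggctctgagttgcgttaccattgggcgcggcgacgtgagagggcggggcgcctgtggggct
Myl9 promoter: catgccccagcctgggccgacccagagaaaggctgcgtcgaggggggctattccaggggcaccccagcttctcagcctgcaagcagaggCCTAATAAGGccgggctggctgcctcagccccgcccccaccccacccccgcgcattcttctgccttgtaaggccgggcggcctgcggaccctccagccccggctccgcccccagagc

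Acta2, smooth muscle α-actin, held no exact box in these bases, but 2 stretches that match in 9 of 10 positions, which are the elements known as CArG B and CArG A of this gene. A match with at most 1 departure was present in 18.6% of all RefSeq promoters, so it is a loose criterion. They are shown within 30 bases each on the minus strand, at chr19:34255438-34255467 and chr19:34255388-34255417, inside the region that had the Acta2 promoter peak.
Acta2 CArG B: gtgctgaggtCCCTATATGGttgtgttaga
Acta2 CArG A: cgtctttgctCCTTGTTTGGgaagcgagtg

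Away from promoters, the windows of 300 bases centred on the summits held an exact CArG box in 5 member regions. The one in an intron of Pcsk7, 16.0 kb from the start of Tagln and beyond its 3′ end, had a box 9 bases from the summit and is shown because the region opened in DIFF cultures (chr9:45919899-45920198). The one 10.2 kb upstream of Acta2 had a box 33 bases from the summit and is shown because it was among the most accessible member regions in all libraries (chr19:34265651-34265950). It was chosen after its values were seen. Both are printed on the plus strand of GRCm38, with the CArG box and, in the Acta2 window, the AP-1 motif TGANTCA in capitals.
Tagln +16.0 kb: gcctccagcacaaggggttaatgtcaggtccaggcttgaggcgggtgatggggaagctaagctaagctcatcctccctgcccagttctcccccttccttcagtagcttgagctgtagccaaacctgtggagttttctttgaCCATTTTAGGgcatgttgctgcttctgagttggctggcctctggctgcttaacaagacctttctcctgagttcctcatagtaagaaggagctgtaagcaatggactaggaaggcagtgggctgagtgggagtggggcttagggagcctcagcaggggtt
Acta2 -10.2 kb: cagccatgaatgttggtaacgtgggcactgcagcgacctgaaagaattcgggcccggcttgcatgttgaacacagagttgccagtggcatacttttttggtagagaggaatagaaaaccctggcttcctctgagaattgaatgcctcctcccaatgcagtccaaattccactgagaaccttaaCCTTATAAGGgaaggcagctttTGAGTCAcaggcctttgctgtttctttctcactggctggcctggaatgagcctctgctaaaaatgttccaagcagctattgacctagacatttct

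Most member regions were called in many libraries. Of the 70, 28 (40%) had a peak in all 10 libraries, 17 in 5 to 9, 15 in 2 to 4 and 10 in 1, while 27.5% of all regions had a peak in all 10. Their summits lay upstream of the gene in 22 regions, in its body in 28 and downstream in 20. In 8 regions the summit marked the promoter of another gene (Cul9, Fbxl18, Dguok, Sidt2, Ecsit, Elof1, Ap3m1 or Reep2), so the 20 kb rule also took in neighbours. Regions are named here by the distance of the summit from the gene's start, positive in the direction of transcription. The map of all 70 regions shows the constant regions as unbroken rows and the changing ones as rows with gaps.

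**Figure D1:**
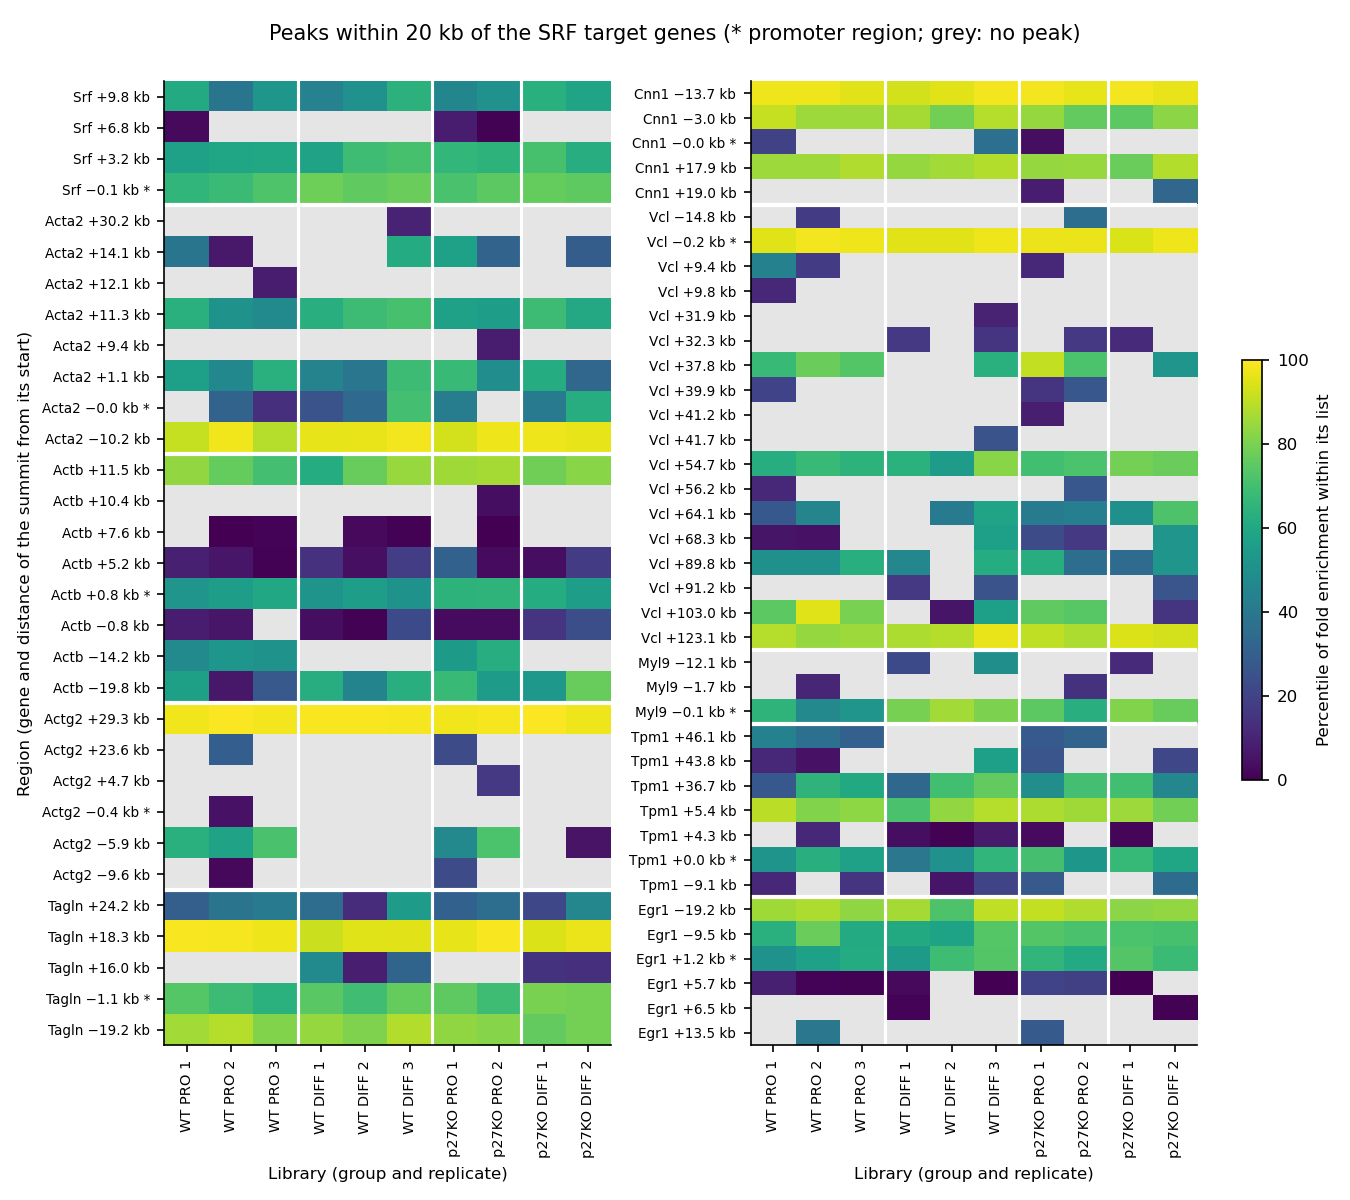
Percentile of fold enrichment within its own peak list (colour, 0 to 100) for each of the 70 member regions (rows, by gene and distance of the summit from the gene's start) in the 10 libraries (columns, by group). Grey marks a library without a peak and an asterisk the promoter region; 28 rows are filled in all 10 libraries, and the rows of Actb −14.2 kb, Tpm1 +46.1 kb and Tagln +16.0 kb switch between PRO and DIFF in both genotypes.

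Levels are given as the percentile of a peak's fold enrichment within its own list, where 100 is the highest peak. Fold enrichment is the pileup at the summit over the local background of the same library. Promoter regions, those with a summit nearest to a start and within 3 kb, fell into a clear order. Vcl, which encodes the adhesion protein vinculin, was highest, between the 94.3rd and 98.2nd percentile in the 10 libraries, and its lowest library was above the highest library of any other member. Srf (65.8 to 78.0) and Tagln (64.0 to 80) overlapped each other throughout. Egr1, an immediate early zinc finger factor, ranged from 51.3 to 73.4, Tpm1 (tropomyosin) from 39.6 to 70.6, Actb (β-actin) from 51.2 to 65.0 and Myl9 (a regulatory light chain of myosin) from 47.1 to 86.1, so neighbours in this order did not differ beyond their spread. The Tagln region lay 1038 bases before the nearest start, while the summits of the other promoter regions lay within 352 bases of one.

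The smooth muscle genes among the members did not go together at their promoters. Tagln and Myl9 had a promoter peak in all 10 libraries, while Acta2, Cnn1 and Actg2 had the weakest promoters of the members. Acta2 had a promoter peak in 8 of 10 libraries, between the 13.4th and 70.0th percentile. Cnn1, calponin of smooth muscle, had one in 3 libraries, at percentiles 19.3 in WT PRO replicate 1, 36.6 in WT DIFF replicate 3 and 3.8 in p27KO PRO replicate 1. Actg2, enteric γ-actin, had one in WT PRO replicate 2 alone, at the 4.9th percentile. A missing peak says that none was called at that depth, which differed between lists, and Cnn1 and Actg2 promoters could not be tested. By contrast, Acta2 −10.2 kb had a peak in all 10 libraries, at percentiles 91.1, 97.7 and 89.0 in WT PRO, 96.3, 96.7 and 98.4 in WT DIFF, 93.2 and 97.3 in p27KO PRO and 97.5 and 96.4 in p27KO DIFF. It lies in intergenic DNA at chr19:34265491-34266111, and its DIFF minus PRO change was 0.48 ± 0.23 (SE) in WT (limma, adjusted p = 0.189).

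**Figure D2:**
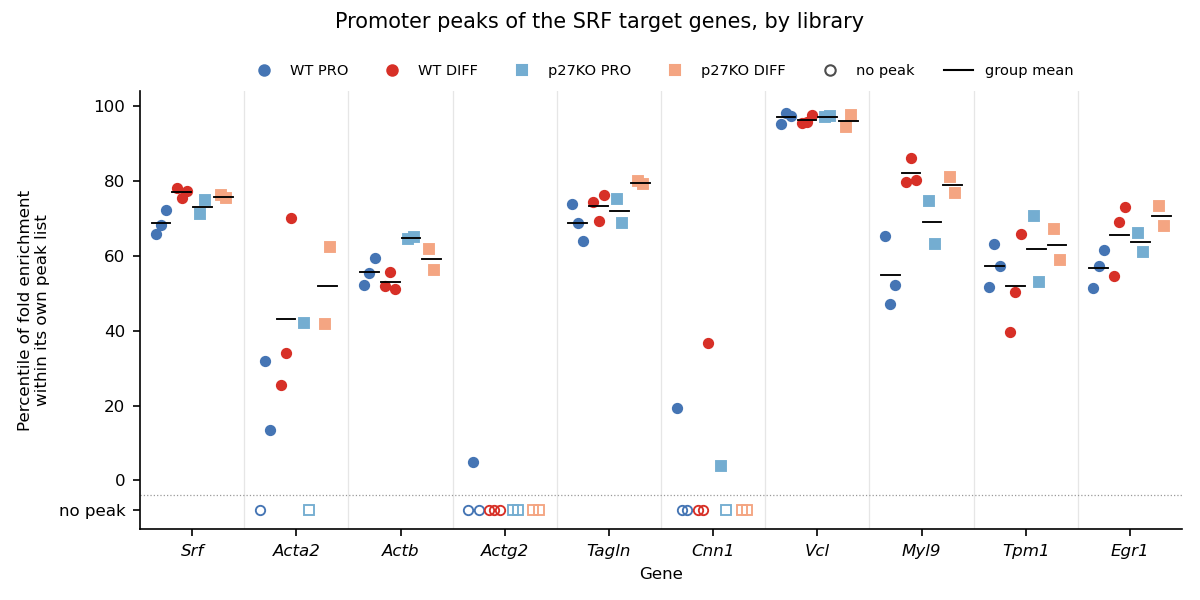
Percentile of fold enrichment within its own peak list (y axis) for the promoter region of each member (x axis), with 1 point per library, coloured by group, and a bar at the group mean where every library of the group had a peak. Open symbols at the bottom are libraries without a peak; Vcl sits between 94.3 and 98.2 in all libraries, Myl9 is higher in the 3 WT DIFF than in the 3 WT PRO libraries, and Actg2 and Cnn1 have mostly open symbols.

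Changes were tested on ranks. Within each list, regions were ordered by their strongest peak, those with none sharing the lowest rank, and the ranks were mapped onto a normal distribution (the normal score). Fitting by limma covered the 70627 regions found in 5 or more of the libraries. A change is a difference of mean normal scores, not a log2 fold. Of the 45 member regions that met this filter, 9 (20%) passed an adjusted p of 0.05 for DIFF minus PRO in WT, 4 higher and 5 lower. Over all tested regions 9.15% were called higher and 10.1% lower, so the pooled share of members was near that background. By presence, the shares parted: 1 of the 28 members with a peak in all 10 libraries was called in WT (3.57%, beside 11.2% of such regions), and 8 of the 17 with a peak in 5 to 9 libraries (47.1%, beside 28.4%). Of those 8, Tagln +16.0 kb, Actb −14.2 kb and Tpm1 +46.1 kb had peaks in 1 condition alone. They met the filter through the condition where they were high, so they had to differ, and their changes are given without p-values. The others of those 8 had a peak in every library of the condition where they were high, which alone met the filter. Their p-values carry that choice, and those of Actg2 −5.9 kb, without a WT DIFF peak, are not given. In p27KO, 1 member region was called higher and 3 lower, against 5.83% higher and 6.48% lower over all regions. The 4 member calls in p27KO were also calls in WT, as were 79.9% of all regions called in p27KO. The 9 members called in WT had the same sign in p27KO, as had 97.2% of all regions called in WT. Of these members, 8 met the filter through peaks of both genotypes in the condition where they were high, the 4 called in both genotypes among them. The filter thus set their agreement in part, and at Tagln +16.0 kb, Actb −14.2 kb and Tpm1 +46.1 kb fixed it in advance. The median change of the tested members was 0.24 in WT and 0.25 in p27KO, beside 0.03 and 0.04 over all regions. Among the 28 members with a peak in all libraries it was 0.19 and 0.23, beside 0.08 and 0.09 for the 37862 such regions. Without WT DIFF replicate 3, 10 member regions were called in WT and 6 in p27KO. The p27KO count fell to 0 without p27KO PRO replicate 2, and to 1 without p27KO DIFF replicate 1 or without replicate 2, each of which leaves 1 library in a group that is then assumed to vary like the others.

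**Figure D3:**
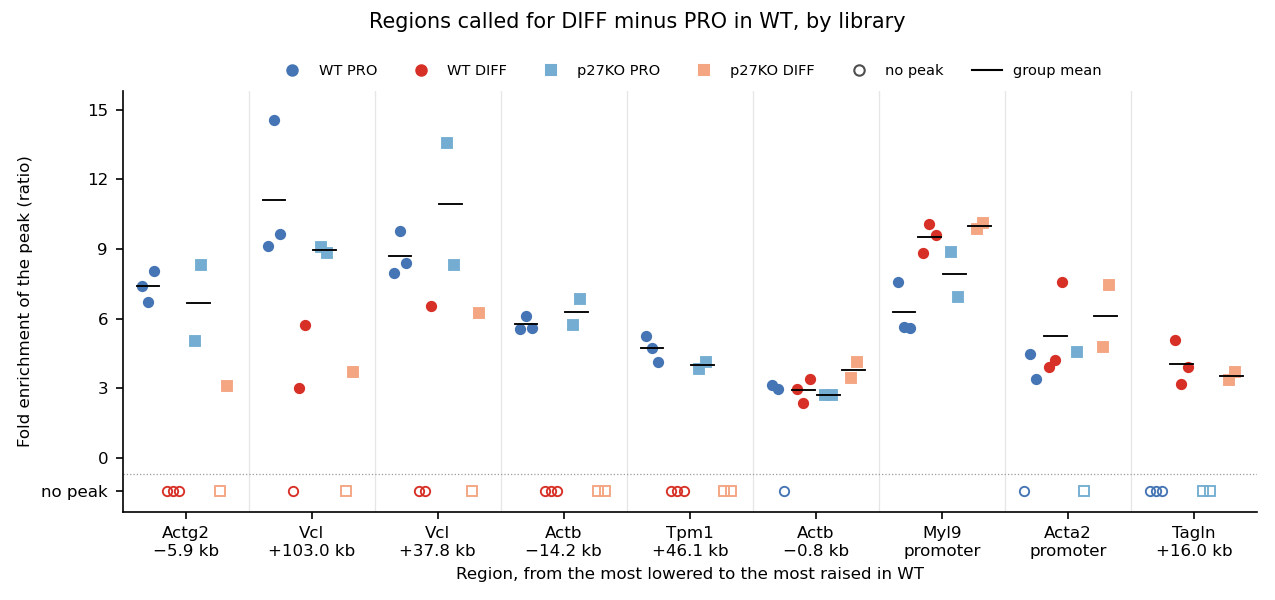
Fold enrichment of the peak (y axis, ratio to the local background) in each library for the 9 member regions called for DIFF minus PRO in WT, ordered from the most lowered to the most raised. Points are libraries coloured by group, bars are means of groups in which every library had a peak, and open symbols are libraries without a peak; Actb −14.2 kb and Tpm1 +46.1 kb have peaks in the 5 PRO libraries alone and Tagln +16.0 kb in the 5 DIFF libraries alone.

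Myl9 was the promoter with the firmest change. This gene encodes a myosin light chain that is phosphorylated when smooth muscle contracts. Its promoter region (chr2:156774825-156775799) spans the start site and holds the CArG box printed above, 7 bases from the summit. Fold enrichment was 7.59, 5.66 and 5.62 in WT PRO and 8.84, 10.1 and 9.62 in WT DIFF libraries. In p27KO it was 8.88 and 6.94 in PRO and 9.85 and 10.1 in DIFF libraries. The DIFF libraries were above the PRO libraries in both genotypes, which with so few libraries, above all in p27KO, can arise by chance alone. The share of all regions that part in this way was not counted. In percentiles, the mean rose from 54.9 ± 9.35 to 82.0 ± 3.62 (SD, n = 3 each) in WT, a change of 0.92 ± 0.21 (SE; limma, adjusted p = 0.00961). The p27KO means were 68.9 ± 8.17 and 78.9 ± 2.97 (SD, n = 2 each), and the change of 0.50 ± 0.25 did not pass (limma, adjusted p = 0.242). The difference between the genotypes was −0.42, with an unadjusted p of 0.224 in limma.

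Acta2 had the largest promoter change and the least certain one. Its product, α-actin of smooth muscle, is the usual marker of contractile cells and myofibroblasts. Percentiles at the promoter were 32.0 and 13.4 in WT PRO replicates 2 and 3, with no peak in replicate 1, and 25.5, 34.1 and 70.0 in WT DIFF. They were 42.0 in p27KO PRO replicate 1, with no peak in replicate 2, and 41.7 and 62.3 in p27KO DIFF. PRO and DIFF overlapped in both genotypes. The change was 1.06 ± 0.34 in WT (limma, adjusted p = 0.0488) and 1.22 ± 0.41 in p27KO (limma, adjusted p = 0.0814). This promoter region had a peak in every DIFF library, which alone met the filter, so its p-values carry that choice. The WT call was lost without WT PRO replicate 1 or 3, any of the 3 WT DIFF libraries or either p27KO DIFF library, with limma adjusted p between 0.0593 and 0.166 and a change between 0.76 and 1.21. A second region 1.1 kb inside the gene, in an intron, had a peak in all libraries and a change of 0.09 in WT and −0.02 in p27KO.

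The other tested promoters gave no call. For Srf the percentile was 68.8 ± 3.28 in WT PRO, 76.9 ± 1.24 in WT DIFF (SD, n = 3 each), 73.1 ± 2.63 in p27KO PRO and 75.8 ± 0.656 in p27KO DIFF (SD, n = 2 each). The lowest WT DIFF library (75.5) was above the highest WT PRO library (72.3), but the change of 0.36 ± 0.17 did not pass (limma, adjusted p = 0.181), and in p27KO it was 0.27 ± 0.21. Egr1 had changes of 0.39 ± 0.18 in WT and 0.42 ± 0.22 in p27KO (limma, adjusted p = 0.164 and 0.273). Tagln, which encodes the actin cross-linker SM22, had 0.25 ± 0.17 and 0.43 ± 0.20. Changes at Actb (0.08 and 0.07), Tpm1 (0.05 and 0.25) and Vcl (−0.04 and −0.04) had standard errors between 0.19 and 0.24. Of the 8 tested member promoters, 2 were called in WT and 0 in p27KO, and 1 had an unadjusted p under 0.05 in p27KO. Over 13272 promoter regions of protein-coding genes, 4.67% were called in WT and 2.16% in p27KO. Acta2, 1 of the 2 WT calls, met the filter through DIFF, where it was high, so no comparison is drawn from these shares. Scores and percentiles can part slightly: mean percentiles of Actb and Tpm1 were lower in WT DIFF (52.9 and 51.9) than in WT PRO (55.7 and 57.3) while their scores were not, since regions without a peak enter the scores alone.

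One distal member region opened in both genotypes. Tagln +16.0 kb (chr9:45919950-45920398), the Pcsk7 intron whose CArG box is shown above, had a peak in 0 of 5 PRO libraries. It had one in all 5 DIFF libraries, with fold enrichments of 5.09, 3.19 and 3.93 in WT and 3.38 and 3.69 in p27KO. These were modest peaks, at percentiles 47.4, 8.4, 32.3, 14.7 and 13.5. The change was 1.28 ± 0.22 in WT and 1.07 ± 0.27 in p27KO (SE). With every list cut to the length of the shortest, it was 0.88 in WT and 0.51 in p27KO. With any 1 of the 4 p27KO libraries left out, the p27KO change was between 0.97 and 1.18. Tagln +16.0 kb was the only member region of 70 that opened by presence in either genotype, where 1.34% of all regions opened in WT and 2.40% in p27KO.

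Actb −0.8 kb was the other distal region called higher in WT. It is a low shoulder upstream of the β-actin promoter (chr5:142907338-142907712), with percentiles of 7.8 and 5.9 in WT PRO replicates 1 and 2, no peak in replicate 3, and 3.7, 0.4 and 22.6 in WT DIFF. The p27KO values were 3.0 and 2.8 in PRO and 15.1 and 23.9 in DIFF. WT groups overlapped. The p27KO groups, of 2 libraries each, did not, which can arise by chance alone. The change at Actb −0.8 kb was 0.60 ± 0.19 in WT (limma, adjusted p = 0.0493) and 0.79 ± 0.24 in p27KO (limma, adjusted p = 0.0507). The region had a peak in every DIFF library, which alone met the filter, so these p-values carry that choice. The WT call was lost when any library but WT DIFF replicate 3 was left out (limma adjusted p between 0.061 and 0.159), on −log10 p ranks (0.263) and with a filter of at least 2 libraries (0.125). With every list cut to the length of the shortest, the change was 0.31 in WT and 0.16 in p27KO (limma, adjusted p = 0.24 and 0.689).

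Regions called lower in WT lay at least 5.9 kb from the gene's start, and 2 of them had no peak in any DIFF library. Actb −14.2 kb (chr5:142920815-142921025), in intergenic DNA, had fold enrichments of 5.54, 6.12 and 5.61 in WT PRO and 5.75 and 6.86 in p27KO PRO, and no peak in any of the 5 DIFF libraries. Its change was −1.21 ± 0.22 in WT and −1.32 ± 0.26 in p27KO (SE). Without p27KO PRO replicate 2 or p27KO DIFF replicate 2, the p27KO change was between −1.22 and −1.14. Tpm1 +46.1 kb (chr9:67003111-67003620), beyond the 3′ end of the tropomyosin gene, had 5.26, 4.76 and 4.15 in WT PRO, 3.83 and 4.16 in p27KO PRO and no peak in DIFF. Its change was −0.87 ± 0.21 in WT, or −0.80 without WT PRO replicate 1, and −0.53 ± 0.26 in p27KO.

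Actg2 −5.9 kb (chr6:83541599-83543036) had the lowest change in WT, and 5 of its 6 peaks were in PRO libraries, which alone would have met the filter. This broad intergenic region had percentiles of 63.6, 57.6 and 71.3 in WT PRO and no peak in WT DIFF. In p27KO it had 46.9 and 71.6 in PRO, and 5.1 in DIFF replicate 2 with no peak in replicate 1. Both contrasts gave a call, but the region met the filter through PRO, where it was high. Its changes, −1.59 ± 0.27 in WT and −1.11 ± 0.33 in p27KO (SE), are therefore given without p-values. The p27KO change was between −1.25 and −0.68 when any 1 of 8 libraries was left out, all but WT DIFF replicate 3 and p27KO PRO replicate 1.

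Both remaining falls were inside the long Vcl gene. Each region had a peak in every PRO library, which alone met the filter, so its p-values carry that choice. Vcl +103.0 kb (chr14:21031836-21032669), in a stretch annotated as UTR of both Vcl and its neighbour Ap3m1, had percentiles of 74.7, 95.0 and 79.8 in WT PRO and 75.5 and 74.1 in p27KO PRO. In DIFF it had 5.5 and 56.5 in WT replicates 2 and 3, 15.6 in p27KO replicate 2, and no peak in the other two. The DIFF libraries were below the PRO libraries throughout. The change was −1.57 ± 0.31 in WT (limma, adjusted p = 0.00541) and −1.51 ± 0.39 in p27KO (limma, adjusted p = 0.0261), the latter lost when any 1 p27KO library was left out (limma adjusted p between 0.0593 and 0.153). Vcl +37.8 kb (chr14:20967097-20967547), in an intron, had 67.5, 77.1 and 73.3 in WT PRO and 90.8 and 71.6 in p27KO PRO, against 63.5 in WT DIFF replicate 3, 52.2 in p27KO DIFF replicate 2 and no peak in the other 3 DIFF libraries. Its change was −1.22 ± 0.39 in WT (limma, adjusted p = 0.0497) and −1.42 ± 0.48 in p27KO (limma, adjusted p = 0.0808). The WT call was lost when a WT PRO library, WT DIFF replicate 1 or 2, or a p27KO PRO library was left out (limma adjusted p between 0.0533 and 0.163).

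By presence alone, a peak in every PRO and no DIFF library, 3 member regions closed in WT (Actb −14.2 kb, Tpm1 +46.1 kb and Actg2 −5.9 kb) against 3.12% of all regions. In p27KO 4 closed, against 7.88%, namely Actb −14.2 kb and Tpm1 +46.1 kb again, and Srf +6.8 kb and Vcl +39.9 kb. The last 2 were weak intronic peaks: Srf +6.8 kb had fold enrichments of 2.91 and 2.49 in p27KO PRO and 2.80 in WT PRO replicate 1, and Vcl +39.9 kb had 3.33 and 3.92 in p27KO PRO and 3.81 in WT PRO replicate 1. Neither had a peak in a DIFF library, and neither met the filter for testing. With 2 libraries per group the p27KO rule is met more easily than the WT rule with 3. Without WT DIFF replicate 2, 4 regions opened in WT in place of 1. Leaving out 1 of the 4 p27KO libraries gave between 5 and 11 closed and between 1 and 3 opened.

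The 2 regions with AP-1 motifs that closed by presence in both genotypes are printed on the plus strand of GRCm38. Vcl +39.9 kb, which closed by presence in p27KO alone, also held a motif, 38 bases from the summit. AP-1 is the Fos and Jun dimer, itself an immediate early factor. Actb −14.2 kb held 1 motif TGANTCA, 39 bases from the summit, and Tpm1 +46.1 kb held 2, at 113 and 23 bases (capitals). The AP-1 motif was searched for after the data were seen. The windows are chr5:142920791-142921090 and chr9:67003183-67003482.
Actb -14.2 kb: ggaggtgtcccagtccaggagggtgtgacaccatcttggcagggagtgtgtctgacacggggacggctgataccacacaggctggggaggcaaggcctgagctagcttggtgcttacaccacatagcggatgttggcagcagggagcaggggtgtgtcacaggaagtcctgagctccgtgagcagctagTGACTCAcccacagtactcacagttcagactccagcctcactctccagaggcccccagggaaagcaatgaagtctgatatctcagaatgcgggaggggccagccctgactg
Tpm1 +46.1 kb: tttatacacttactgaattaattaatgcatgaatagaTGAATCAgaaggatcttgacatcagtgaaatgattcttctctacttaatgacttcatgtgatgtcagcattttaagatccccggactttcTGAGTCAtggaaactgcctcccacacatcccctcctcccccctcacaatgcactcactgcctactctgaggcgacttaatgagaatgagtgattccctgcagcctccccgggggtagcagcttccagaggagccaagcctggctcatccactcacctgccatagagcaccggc

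Both motifs read the same on either strand, and in member windows no match of one overlapped a match of the other. Exact CArG boxes were present in 10 of the 45 tested member windows (22.2%), beside 1.61% of 70509 tested windows on assembled chromosomes, and in 5 of 10 member promoter windows (Srf, Actb, Vcl, Myl9 and Egr1) beside 0.995% of tested promoter windows. The genes were picked as SRF targets, so this is a description. Of the 10 tested member regions with a box, 2 were called higher in WT (the Myl9 promoter and Tagln +16.0 kb) and 0 lower. Of the 35 without one, 2 were higher and 5 lower. Tagln +16.0 kb, and Actb −14.2 kb, Tpm1 +46.1 kb and Actg2 −5.9 kb among those lower, had WT peaks in 1 condition alone. They met the filter through it, so these counts do not compare regions with and without a box. Median changes with and without a box were 0.44 and 0.19 in WT and 0.30 and 0.17 in p27KO. Over the series, 13.4% of the 1135 windows with a box were higher and 9.87% lower in WT, beside the 9.15% and 10.1% of all regions. AP-1 motifs were in 7 of the 45 member windows (15.6%; 10.8% of all), of which 0 were called higher and 2 lower in WT, both with peaks in PRO alone. Among all 7637 tested windows with this motif, 5.89% were higher and 26.3% lower in WT.

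Loss of p27 made no detectable difference at these regions. For p27KO minus WT, 0 of 45 member regions were called at PRO and 0 at DIFF by limma, and 0 had an unadjusted p under 0.05 in either; 0.0340% and 0.0156% of all regions were called, and 5.53% and 4.91% had an unadjusted p under 0.05. The largest difference was 0.68 at PRO and 0.69 at DIFF. The interaction, p27KO minus WT of the DIFF minus PRO change, called 0 member regions, 0 of them with an unadjusted p under 0.05, and 0.00% of all regions (3.91% had an unadjusted p under 0.05). At Acta2 the interaction was 0.16, at Myl9 −0.42, at Tagln +16.0 kb −0.20 and at Actg2 −5.9 kb 0.48. The largest, −0.84 at Acta2 +14.1 kb in the 3′ UTR of that gene, had an unadjusted p of 0.188. With 2 p27KO libraries per condition, differences of this size were not detectable, and values that miss the threshold do not show that the genotypes behaved alike. In the plot of the 2 changes most regions lie along the line of equal change.

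**Figure D4:**
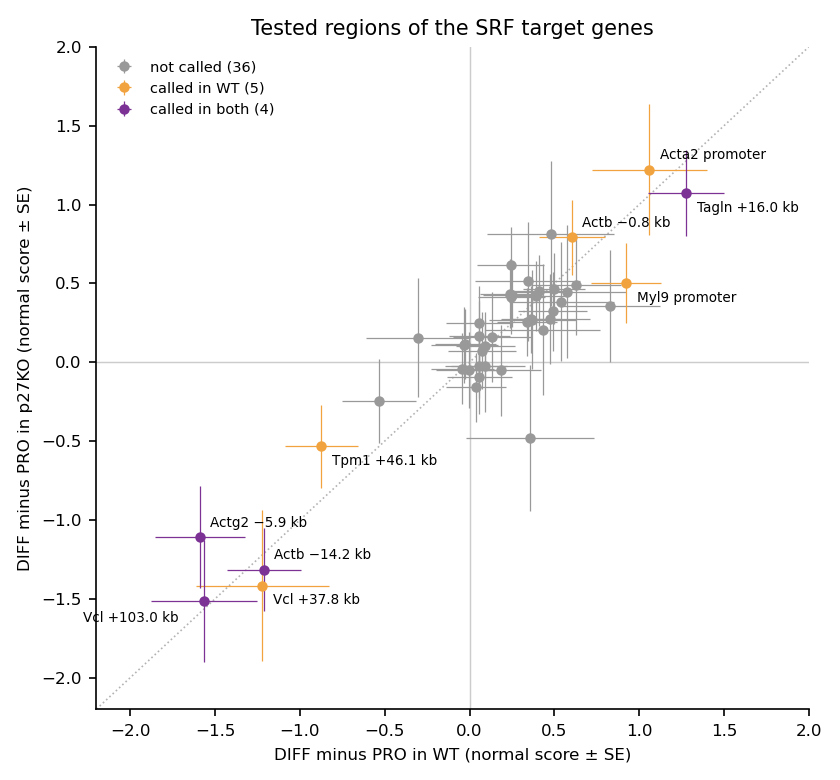
DIFF minus PRO change in WT (x axis) and in p27KO (y axis), both in normal score with bars of 1 standard error, for the 45 tested member regions; the dotted line marks equal change. Purple points (4) were called in both genotypes, orange points (5) in WT alone and grey points (36) in neither. The 9 called regions have the same sign in both genotypes, which the filter set in part for all but the Myl9 promoter.

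The wider pathway was described by promoters of 33 further genes: SRF cofactors, other immediate early targets, other cytoskeletal targets and matricellular targets. A promoter region was found for 32, it had a peak in all 10 libraries for 28, and 29 were tested. In WT 2 rose, 1 fell and 26 gave no call; in p27KO 0 of 29 were called by limma and 2 had an unadjusted p under 0.05, while 4.67% of all promoter regions were called in WT and 2.16% in p27KO, where 9.89% had an unadjusted p under 0.05. The interaction called 0, with 1 at an unadjusted p under 0.05. Median changes were 0.22 in WT and 0.16 in p27KO, beside 0.12 and 0.14 over all tested promoter regions.

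Among the 6 cofactors no promoter was called. Mrtfa, the main partner at cytoskeletal genes, stood between percentiles 96.1 and 99.0 in all libraries, with changes of 0.10 in WT and 0.30 in p27KO. Mrtfb had 0.09 and 0.02, and Elk1 0.04 and 0.05. Myocd, the myocardin of smooth muscle, had weaker peaks, in 9 of 10 libraries, between percentiles 10.8 and 54.3. Of the immediate early targets, Ier2 rose in WT by 0.68 ± 0.17 (limma, adjusted p = 0.0165), from percentiles 34.9, 35.3 and 36.5 in PRO to 51.9, 53.1 and 60.9 in DIFF. In p27KO Ier2 had 55.3 and 50.8 in PRO and 51.7 and 45.1 in DIFF. These percentiles did not rise, while the score changed by 0.16. Fos had 0.26 and 0.27 and Egr3 0.43 and −0.04, none called.

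Of 16 cytoskeletal targets, 14 were tested. Actn1, which encodes the actin cross-linker α-actinin, rose in WT by 0.55 ± 0.17 (limma, adjusted p = 0.0433), from 67.0, 69.8 and 76.2 in PRO to 81.7, 84.2 and 86.2 in DIFF. Gsn, which encodes gelsolin, a protein that severs actin filaments, changed by −0.75 ± 0.17 in WT (limma, adjusted p = 0.00904), from 94.7, 96.5 and 95.6 in PRO to 81.9, 73.6 and 86.5 in DIFF. In p27KO Gsn had 87.4 and 89.0 in PRO and 83.4 and 84.5 in DIFF, a change of −0.06, and the interaction of 0.69 had an unadjusted p of 0.0227 (limma, adjusted p = 1.00). Actg1, cytoplasmic γ-actin, had 0.04 in WT and 0.60 in p27KO (limma, adjusted p = 0.162). Of the matricellular genes, Ccn1 had 0.29 and 0.21 and Ccn2, connective tissue growth factor, 0.49 and 0.55, none called, and Ankrd1 had no promoter peak.

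**Figure D5:**
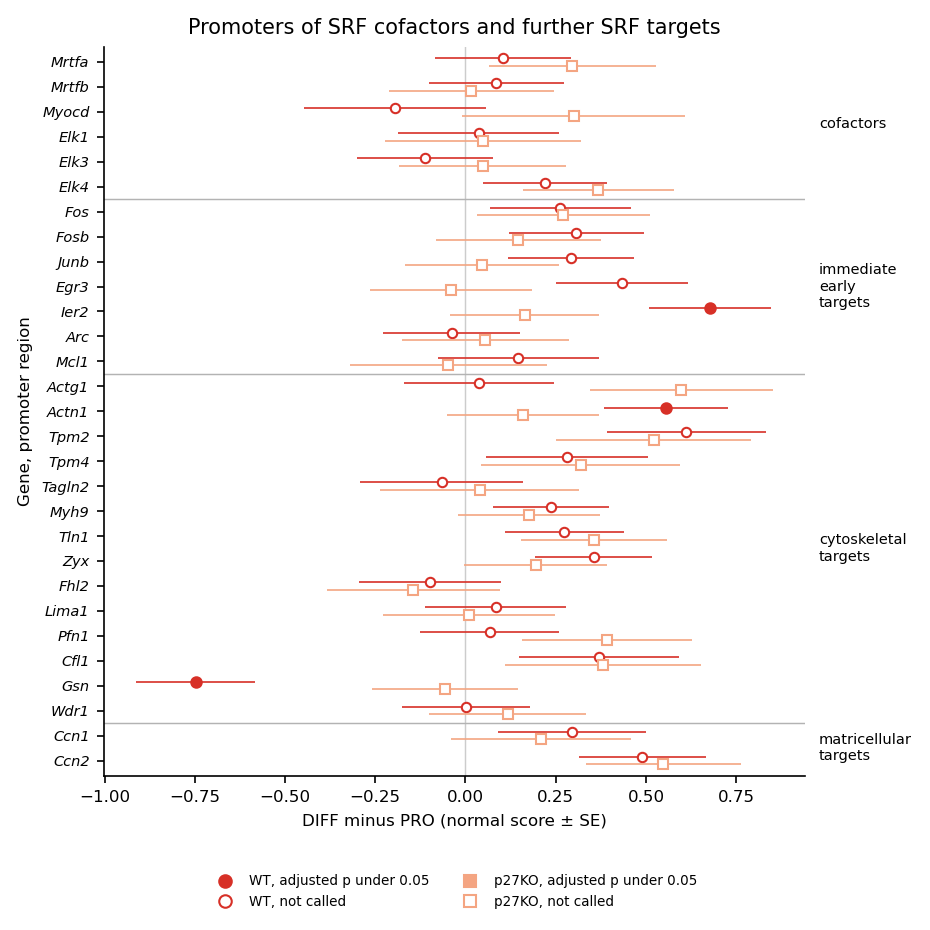
DIFF minus PRO change (x axis, normal score, bars of 1 standard error) at the promoter regions of the 29 tested pathway genes (y axis), in WT (circles) and p27KO (squares), grouped by list. Filled symbols passed an adjusted p of 0.05, which Ier2, Actn1 and Gsn did in WT and no gene did in p27KO.

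Markers of other cells that could hold smooth muscle or vascular chromatin were examined beside these results. Of 8 mural cell markers (Des, Myh11, Pdgfrb, Rgs5, Kcnj8, Notch3, Abcc9, Lmod1), 4 to 7 had a promoter peak in a WT PRO library, 5 to 7 in WT DIFF, 5 to 6 in p27KO PRO and 6 in p27KO DIFF. Des had a peak in 1 library and Rgs5 in 2. Lmod1, a leiomodin that is itself an SRF target in smooth muscle, rose by 1.73 ± 0.33 in WT (limma, adjusted p = 0.00417) and 1.43 ± 0.41 in p27KO (limma, adjusted p = 0.0425). It had a peak in every DIFF library, which alone met the filter, so its p-values carry that choice. Its percentiles were 20.7 in WT PRO replicate 3 with no peak in the others, 56.0, 45.1 and 77.9 in WT DIFF, 23.1 and 39.8 in p27KO PRO and 50.3 and 89.1 in p27KO DIFF. The other 5 tested mural markers gave no call and differed in direction. Their changes in WT and p27KO were −0.38 and −0.08 at Myh11, −0.07 and −0.35 at Kcnj8 and −0.27 and −0.12 at Abcc9. They were 0.90 and 0.63 at Pdgfrb and 0.28 and 0.38 at Notch3. Of 4 endothelial markers, 0 or 1 had a promoter peak in a library, and Pecam1 and Tek had none. Among 5 microglial markers, 3 or 4 had a promoter peak, Cx3cr1 had none, and P2ry12 fell by 0.79 in WT and 0.82 in p27KO (limma, adjusted p = 0.0106 and 0.0343). The other 3 tested gave no call, with changes in WT and p27KO of 0.66 and 1.13 at Csf1r, −0.66 and −0.96 at Tmem119 and 0.14 and −0.18 at Aif1. The part of such cells in the member regions was not tested.

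The promoters with a pattern most like that of Srf over the 10 libraries, by the mean absolute difference of normal score among 14540 protein-coding promoters, were Setd5 (0.0567), Hnrnpl (0.0603) and Kcnab1 (0.0646), all with a peak in 10 libraries and none called. Those most like Acta2 were Kiss1 (0.137), Slco1a5 (0.201) and Bpifa5 (0.242). They too were weak peaks, found in 8, 8 and 7 libraries, and their changes, which the choice for likeness fixes in part, were 1.04, 1.22 and 1.42 in WT and 1.46, 1.61 and 1.01 in p27KO.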

How the data were processed

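ATAC-seq libraries of 4 groups were compared through 1 peak list each. The authors clipped adapters with Cutadapt, trimmed with Trimmomatic, mapped with Bowtie2 to GRCm38, flagged duplicates in Picard and ran MACS2 in its narrow mode at a false discovery rate of 0.05, 1 list per library. Versions, read shift and extension are not given in the sources used here. The deposited fold enrichment is a ratio to local background. The authors' −log10 p-value was used in alternatives, and the deposited −log10 q-value was not used. A longer list can come from more reads alone.

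Member genes and lists were chosen with earlier results of these data known. Gene bodies and starts were from GENCODE M21, while the authors used M18. Overlapping peaks (at least 1 bp) were merged. The fit to normal scores (R 4.3.3, limma 3.58.1) had a mean for each group and Benjamini-Hochberg adjustment over 70627 regions, after tests on simulated data. The study's DiffBind test needs alignments, which were not used here. Named were all members, every member region called or switched by presence, pathway promoters that were called, with Mrtfa, Mrtfb and Elk1, and the 3 promoters most like Srf and Acta2. Other pathway genes were named after their values were seen. Ranks and windows were computed in Python 3.11.15. Alternatives are described in the closing section.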

Additional observations from a re-analysis of the deposited data

How the results depend on the processing

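Of 481 repeats of single results under other settings, 400 gave the same direction and the same call, 60 lost the call, 8 gained one and 13 turned direction. The cause of these changes was not tested, apart from fewer regions or libraries by construction. The count of 9 member regions called in WT was 1 with regions in all 10 libraries alone, 5 with a window of 5 kb, and 6 to 10 when libraries were left out in turn. The count of 4 in p27KO was 2 with a filter of at least 2 libraries, 0 with regions in all 10 libraries, 1 with the 5 kb window and 0 to 6 with libraries left out. Interaction and genotype counts were 0 under every alternative run. The 4 WT regions that closed or opened were 0 with the 5 kb window and 4 to 7 with libraries left out; the 5 in p27KO were 2 and 8 to 13. Calls at member promoters were counted over WT and p27KO together, 2 in the main setting, both in WT. The count was 1 with the filter of at least 2 libraries and with regions in all 10. It was also 1 with the promoter region of highest fold enrichment. With lists cut to the length of the shortest it was 3, 1 of them Acta2 in p27KO. It was 1 or 2 when a WT library was left out. With regions in all 10 libraries, the Acta2 promoter could not be tested.

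Small promoter changes turned direction. With the promoter region of highest fold enrichment, Acta2 was −0.023 in p27KO, and Tpm1 was −0.004 in WT and −0.047 in p27KO. On −log10 p ranks Actb was −0.06 in WT and −0.03 in p27KO. With regions in all 10 libraries Actb was −0.004 and Tpm1 −0.044 in WT. With libraries left out in turn, Actb ranged from −0.053 to 0.254 in WT and from −0.04 to 0.188 in p27KO, Vcl from −0.172 to 0.058 and from −0.209 to 0.128, and Tpm1 in WT from −0.037 to 0.140. The WT call at the Myl9 promoter, which had a peak in all 10 libraries, was kept in each alternative that tested it. Vcl +103.0 kb and Actg2 −5.9 kb also kept theirs where tested, but met the filter through PRO, where they were high.

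Deviations of same-numbered PRO and DIFF libraries from their group means were weakly correlated in WT, at 0.057, 0.065 and 0.033. Between WT libraries of different number the correlation was −0.051 to −0.005. In p27KO it was −0.141 for the same and 0.141 for different numbers, which 2 libraries per group force to be equal and opposite. Whether the number pairs the libraries cannot be told from these values. With the replicate number as a block, 7 member regions were called in WT and 2 in p27KO, 2 member promoters in WT, and 0 in the interaction and in both genotype comparisons. With the p27KO pairing crossed, an alternative chosen after seeing the data, 5 were called in p27KO.

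Depth per library was unknown, so a missing peak in a short list cannot be read as closed chromatin.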
